A study of Mus musculus with 4 samples.

Results

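The *Meis*, *Pbx* and *Pknox* genes encode homeodomain transcription factors of the TALE class (3-amino-acid loop extension), named for extra residues in a loop of the homeodomain. Here 8 of them were followed, *Meis1*, *Meis2*, *Meis3*, *Pbx2*, *Pbx3*, *Pbx4*, *Pknox1* and *Pknox2*, found by gene symbol among the 24421 genes of the expression table. The cells were GFP+ cells sorted by fluorescence from the neural tubes of mouse embryos at E11.5, when neurons of the dorsal neural tube are being born. All of them carried the knockin allele *Prdm13GFP*, in which GFP is placed so that no PRDM13 protein is made from that allele. The *Prdm13GFP/+* group (labelled Het) kept 1 intact copy of *Prdm13*, and the *Prdm13GFP/GFP* group (labelled Homo) had none. There was no wild-type group, so the comparison is of no copy with 1 copy in cells that had switched on *Prdm13*, a gene of dorsal neural tube progenitors and young neurons. RNA of several embryos was pooled for each genotype and 2 libraries were made from each pool. The spread between libraries is therefore technical, and every p-value below measures a difference between 2 pools and not between embryos.

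PBX proteins bind DNA together with HOX proteins and are best known as HOX cofactors. MEIS and PKNOX proteins (PKNOX1 is also called PREP1) bind PBX through a domain that they share, which holds PBX in the nucleus and adds a further DNA contact. MEIS and PKNOX compete for the same surface of PBX, so a cell's supply of the different partners is of interest. In the embryonic hindbrain and spinal cord these complexes act with HOX proteins in patterning along the head to tail axis and in the choice of neuron types.

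The sequence before 1 annotated RefSeq start site is shown for *Meis3*, the member with the largest measured change, and for *Meis1*, a member of the same family whose change did not pass the test. Both stretches come from the RefSeq promoters of build GRCm38.p6, which held 5 of the 8 genes (*Meis1*, *Meis2*, *Meis3*, *Pbx2* and *Pbx4*), and both lie outside the exons of the GENCODE vM21 annotation. The *Meis3* stretch is chr7:16175185-16175274 on the plus strand, 210 to 121 bases before the RefSeq start. The *Meis1* stretch is chr11:19018986-19019219 on the minus strand, 250 to 17 bases before the start, and its capitals mark an E-box, the CANNTG letters that bHLH factors read. Both stretches lie inside the span that RefSeq gives the whole gene, since these starts are not its outermost ones. Of the 9 GENCODE vM21 transcripts of *Meis3*, 2 hold the stretch in an intron, and of the 9 of *Meis1* none reaches it.

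*Meis3*: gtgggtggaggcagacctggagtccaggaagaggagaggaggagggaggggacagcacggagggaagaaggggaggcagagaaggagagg
*Meis1*: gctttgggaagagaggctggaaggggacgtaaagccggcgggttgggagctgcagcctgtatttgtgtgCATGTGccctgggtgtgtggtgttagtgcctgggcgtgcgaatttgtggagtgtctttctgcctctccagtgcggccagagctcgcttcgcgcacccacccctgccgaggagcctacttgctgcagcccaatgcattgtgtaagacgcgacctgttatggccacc

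In the window from 250 bases before to 50 bases after the start, 3 sets of letters were searched on both strands. These were CANNTG, the letters TGACAG that MEIS and PKNOX proteins prefer, and TGATNNAT, the letters of a joint PBX and HOX site. CANNTG was held by 72.3% of all 32851 promoters, TGACAG by 19.2% and TGATNNAT by 8.85%. The *Meis1* and *Pbx2* windows each held 1 match to CANNTG and none to the others, and the *Meis2*, *Meis3* and *Pbx4* windows held none of the 3. These are descriptions of the letters in these windows and say nothing of whether a factor binds there.

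Levels are given as RPKM, reads per kilobase of exon scaled to library size, as deposited, so that they can be compared between libraries. Comparison between genes also depends on the exon length used for each. The length that the RPKM values imply lay within 5% of the annotated one for 71.4% of genes with an annotated length. For *Meis2* it was 5267 bases against 4348 annotated. Changes are log2 ratios of *Prdm13GFP/GFP* over *Prdm13GFP/+*, fitted with limma on log2(RPKM + 0.1) over the 12046 genes whose mean reached 1 RPKM in one genotype or both, with Benjamini-Hochberg adjustment over all of them. A gene passed the test at an adjusted p under 0.05, and was called where it also differed by at least 1.5-fold. All 8 genes were high enough to be tested. The libraries held 11487501 to 18280939 reads as recovered from the RPKM values, and each gene rested on 111 to 5486 reads per library.

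All 8 genes were expressed in both genotypes, over a range from 7.12 RPKM for *Pbx4* to 190.2 RPKM for *Meis3*. One of the 8 was called, *Meis3*, which was higher in *Prdm13GFP/GFP* cells, against 6.33% of all genes tested that were called in either direction and 3.65% that were called higher. The test was passed by 3 of the 8 (*Meis3* and *Meis2* higher, *Pknox2* lower), against 19.7% of all genes at any fold. The libraries of the genotypes did not overlap for 6 of the 8, against 62.1% of all genes (31.7% higher and 30.3% lower), a share so common that this count says little about these genes. The median change of the 8 was 0.09 on the log2 scale, beside 0.01 for all genes tested.

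**Figure D1:**
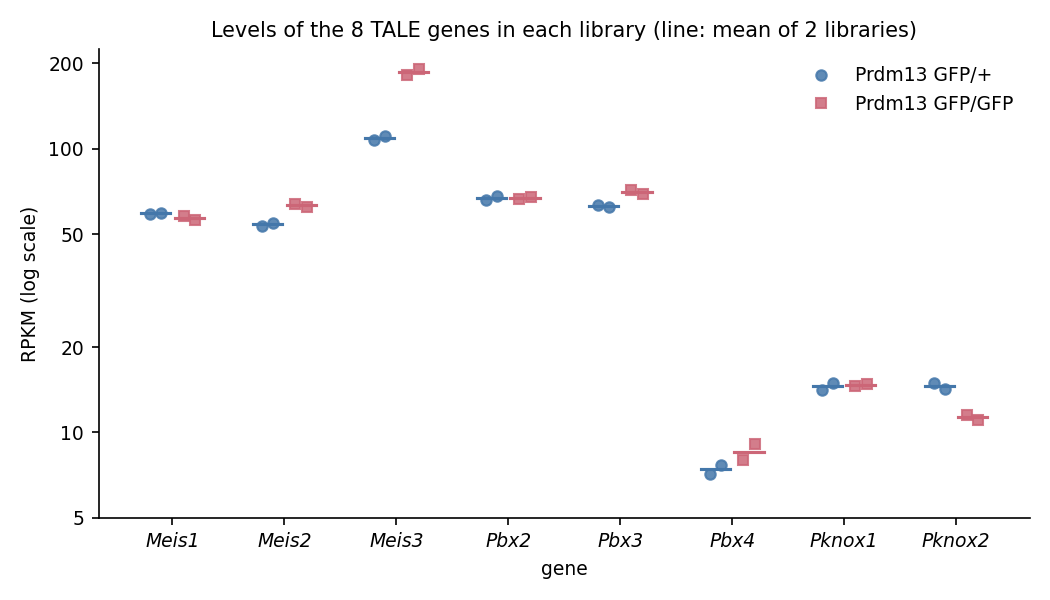
Level of each of the 8 genes (RPKM, log axis) in each library, with circles for the 2 *Prdm13GFP/+* libraries, squares for the 2 *Prdm13GFP/GFP* libraries and a line at the mean of each pair. *Meis3* stands at 107 and 111 RPKM against 182 and 190.2 RPKM, *Pknox2* moves down from 14.9 and 14.3 to 11.504 and 11.1 RPKM, and the libraries of *Pbx2* and *Pknox1* overlap.

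The *Meis* genes were described first. *Meis3* (Entrez Gene 17537, chr7:16174012-16186510 in build mm10), a family member studied mainly in the patterning of the hindbrain, was the most abundant of the 8 genes in both genotypes. It stood at 107 and 111 RPKM in the *Prdm13GFP/+* libraries and at 182 and 190.2 RPKM in the *Prdm13GFP/GFP* libraries. Both mutant libraries were far above both control libraries, and the distance between the genotypes was many times the distance within either. The means were 109 ± 2.26 and 186 ± 5.92 RPKM (SD, n = 2 libraries each), a 1.71-fold rise. The fitted log2 change was 0.77 (SE 0.05, 95% interval 0.66 to 0.88, limma adjusted p = 0.000151).

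With any 1 library left out, the *Meis3* change stayed between 0.74 and 0.80 with a limma adjusted p of 0.00256 to 0.0106. The call was lost when genes of any level were tested (limma adjusted p = 0.0619) and when the test asked for a change above 1.5-fold itself (adjusted p = 0.129), where the lower end of the interval was 1.58-fold. A larger log2 change was measured for 3.01% of the genes tested. Among the 375 other genes with a mean level at least as high as that of *Meis3*, 4 had a larger rise, and they are named here after their values were seen. They were *Prdm13* itself, *Crabp1*, which encodes a retinoic acid binding protein, *Kirrel2*, a cell adhesion gene, and *Phgdh*, an enzyme of serine synthesis.

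*Meis2* (Entrez Gene 17536, chr2:115861264-116067537), which is needed in the embryo for the neural crest and the heart, was lower than *Meis3* in every library. It stood at 53.6 and 54.9 RPKM in *Prdm13GFP/+* and at 64.1 and 62.5 RPKM in *Prdm13GFP/GFP*. The groups did not overlap, yet the step between them was small. The means were 54.2 ± 0.927 and 63.3 ± 1.09 RPKM (SD, n = 2 libraries each), a log2 change of 0.22 (SE 0.05, 95% interval 0.11 to 0.33, limma adjusted p = 0.0195). It fell short of 1.5-fold, and it no longer passed the test with any 1 library left out, at a limma adjusted p of 0.0691 to 0.110 and a change of 0.21 to 0.24.

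*Meis1* (Entrez Gene 17268, chr11:18880428-19019651), known as a HOX partner in blood stem cells and leukaemia, was at much the same level in all 4 libraries. It stood at 59.0 and 59.5 RPKM in *Prdm13GFP/+* and at 58.1 and 55.9 RPKM in *Prdm13GFP/GFP*. Its log2 change was -0.06 (95% interval -0.17 to 0.06, limma adjusted p = 0.439), so a change as large as that of *Meis2* or *Meis3* in the same direction lies outside its interval. Exons of *Meis1* share 896 bases with the antisense gene *Gm16140* and 1029 bases with the same-strand model *Gm37818* in GENCODE vM21. Those *Meis1* exons cover 10532 bases, while the RPKM values imply 3441 counted bases, so whether the shared bases were counted is not known. Whether reads were counted by strand is not given in the sources used here either. Any counted reads of the antisense gene cannot be told apart from those of *Meis1*.

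The intervals of the 3 *Meis* changes did not overlap, although the differences between the changes were not themselves tested. *Meis3* made up 48.8 and 49.2% of the summed *Meis* RPKM in *Prdm13GFP/+* and 59.8 and 61.6% in *Prdm13GFP/GFP*. The share of *Meis1* was 26.8 and 26.5% against 19.1 and 18.1%. There were 1.82 and 1.86 times as much *Meis3* as *Meis1* in the control libraries, and 3.13 and 3.40 times as much in the mutant libraries. By RPKM, *Meis2* was below *Meis1* in both control libraries (0.908 and 0.922 times its level) and above it in both mutant libraries (1.10 and 1.12 times). Which of these 2 genes is higher depends on the exon lengths used, while the change of their ratio does not.

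The *Pbx* genes differed less. *Pbx3* (Entrez Gene 18516, chr2:34171457-34372045), which is active in the dorsal spinal cord and in the circuits for breathing, stood at 63.4 and 62.6 RPKM in *Prdm13GFP/+* and at 71.5 and 69.3 RPKM in *Prdm13GFP/GFP*. The groups did not overlap, with a log2 change of 0.16 (SE 0.05, 95% interval 0.05 to 0.27), and the gene just missed the test at a limma adjusted p of 0.0534. It passed in 2 of 15 other settings, with the replicate number as a block (limma adjusted p = 0.0232) and on recovered reads with limma voom (adjusted p = 0.0148).

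*Pbx2* (Entrez Gene 18515, chr17:34592259-34597400), a broadly expressed family member, stood at 65.9 and 68.0 RPKM in *Prdm13GFP/+* and at 66.4 and 67.4 RPKM in *Prdm13GFP/GFP*. The mutant libraries lay between the control libraries. The log2 change was -0.0004 (95% interval -0.11 to 0.11, limma adjusted p = 0.997), and its sign turned without the second *Prdm13GFP/+* library (0.02) or the first *Prdm13GFP/GFP* library (0.01). Its GENCODE vM21 exons share 227 bases with *Gpsm3* on the same strand, a gene listed at 0.901 to 2.12 RPKM. The *Pbx2* exons there cover 3640 bases against 2801 implied by the RPKM values, so whether the shared bases were counted is not known.

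*Pbx4* (Entrez Gene 80720, chr8:69832476-69872292), best known from the testis, was the lowest of the 8 genes in every library. It stood at 7.12 and 7.70 RPKM in *Prdm13GFP/+* and at 7.99 and 9.12 RPKM in *Prdm13GFP/GFP*, from 111 to 190 reads per library. Its log2 change of 0.20 was close to that of *Meis2*, but it rested on fewer reads, its interval was wider (-0.01 to 0.41) and it did not pass the test (limma adjusted p = 0.158). *Pbx3* reached 0.963 and 0.920 times the level of *Pbx2* in the control libraries and 1.08 and 1.03 times in the mutant libraries.

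*Pbxip1*, which encodes a protein that binds PBX and holds back its contact with DNA, was low in all libraries. It stood at 4.18 and 4.19 RPKM in *Prdm13GFP/+* and at 4.74 and 4.93 RPKM in *Prdm13GFP/GFP*. Its log2 change was 0.20 (SE 0.08) and did not pass the test (limma adjusted p = 0.139).

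Of the *Pknox* genes, *Pknox2* fell. *Pknox2* (Entrez Gene 208076, chr9:36890979-37147342), the family member with the more restricted expression, stood at 14.9 and 14.3 RPKM in *Prdm13GFP/+* and at 11.504 and 11.1 RPKM in *Prdm13GFP/GFP*. Both mutant libraries were below both control libraries. The means were 14.6 ± 0.446 and 11.3 ± 0.300 RPKM (SD, n = 2 libraries each), so that the level was 1.29-fold lower without *Prdm13*. The log2 change was -0.37 (SE 0.06, 95% interval -0.51 to -0.22, limma adjusted p = 0.00866). It fell short of 1.5-fold, and with 1 library left out the change was -0.40 to -0.33 with a limma adjusted p of 0.0515 to 0.0895, which does not pass.

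*Pknox1* (Entrez Gene 18771, chr17:31564722-31607693), which the early embryo needs to survive, stood at 14.1 and 14.99 RPKM in *Prdm13GFP/+* and at 14.6 and 14.8 RPKM in *Prdm13GFP/GFP*. The libraries overlapped, and the log2 change was 0.02 (95% interval -0.13 to 0.16, limma adjusted p = 0.882). Without the first *Prdm13GFP/+* library the change was -0.03. GENCODE vM21 exons of *Pknox1* share 155 bases with the antisense model *AC166172.4*. They cover 6933 bases against 4460 implied by the RPKM values, so whether the shared bases were counted is not known. *Pknox2* was 1.06 and 0.952 times as high as *Pknox1* in the control libraries and 0.789 and 0.749 times as high in the mutant libraries.

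**Figure D2:**
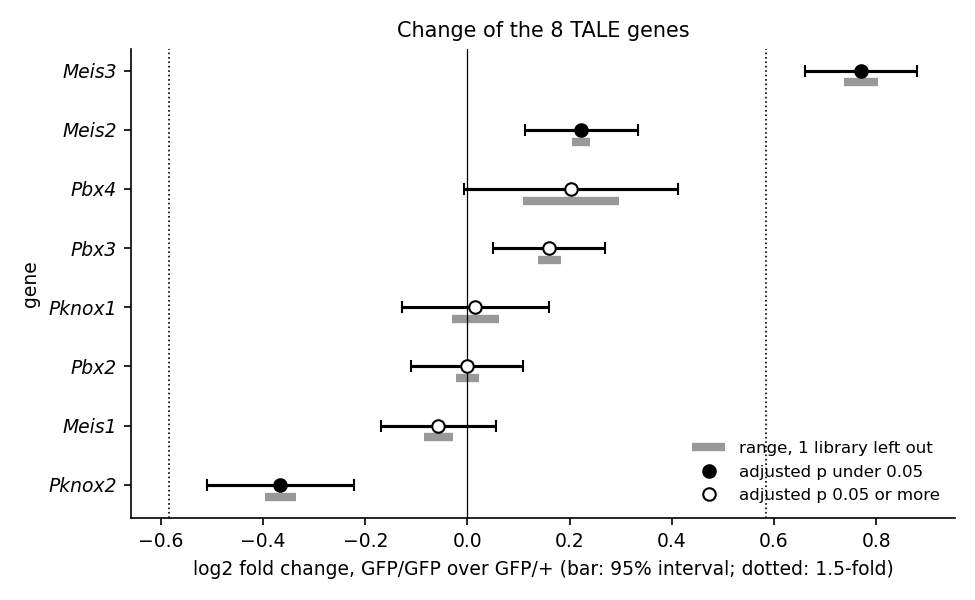
Fitted log2 change of each gene, *Prdm13GFP/GFP* over *Prdm13GFP/+*, with its 95% interval (thin bar), the range over the fits that leave out 1 library (grey bar) and dotted lines at 1.5-fold. Filled points have a limma adjusted p under 0.05: *Meis3* at 0.77 and *Meis2* at 0.22 lie to the right of 0, *Pknox2* at -0.37 lies to the left, and only the *Meis3* point and interval lie wholly beyond a dotted line.

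Ranked by level, the *Prdm13GFP/+* order was *Meis3*, *Pbx2*, *Pbx3*, *Meis1*, *Meis2*, *Pknox2*, *Pknox1* and *Pbx4*. Neighbours in this order did not overlap over the 2 libraries, except *Pknox2* and *Pknox1*, which did. In *Prdm13GFP/GFP* the order was *Meis3*, *Pbx3*, *Pbx2*, *Meis2*, *Meis1*, *Pknox1*, *Pknox2* and *Pbx4*, and no neighbours overlapped. So within 3 neighbouring pairs (*Pbx2* and *Pbx3*, *Meis1* and *Meis2*, *Pknox1* and *Pknox2*) the order of mean RPKM was the reverse of that in the control cells. In *Prdm13GFP/+* these pairs were only 6.25, 9.27 and 0.369% apart, and the *Pknox* libraries overlapped. Order between genes depends on the exon length used for each, and with other lengths these pairs need not reverse. The change of a ratio between the genotypes does not depend on the lengths. The gap between *Meis3* and the next gene was 62.9% of that gene's level in *Prdm13GFP/+* and 164% in *Prdm13GFP/GFP*.

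Summed over its 3 genes, *Meis* RNA stood at 220.0 and 225 RPKM in *Prdm13GFP/+* and at 304 and 309 RPKM in *Prdm13GFP/GFP*. The means were 222 ± 3.55 and 306 ± 3.25 RPKM (SD, n = 2 libraries each), 1.38-fold apart. The 3 *Pbx* genes summed to 136 and 138 RPKM against 146 and 146 RPKM, 1.06-fold apart. The 2 *Pknox* genes summed to 29.0 and 29.3 RPKM against 26.1 and 25.9 RPKM. The ratio of summed *Meis* to summed *Pbx*, counting these genes alone, was 1.61 and 1.63 in the control libraries and 2.08 and 2.12 in the mutant libraries. No test was run on these sums, and RNA levels do not give the amounts of protein.

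**Figure D3:**
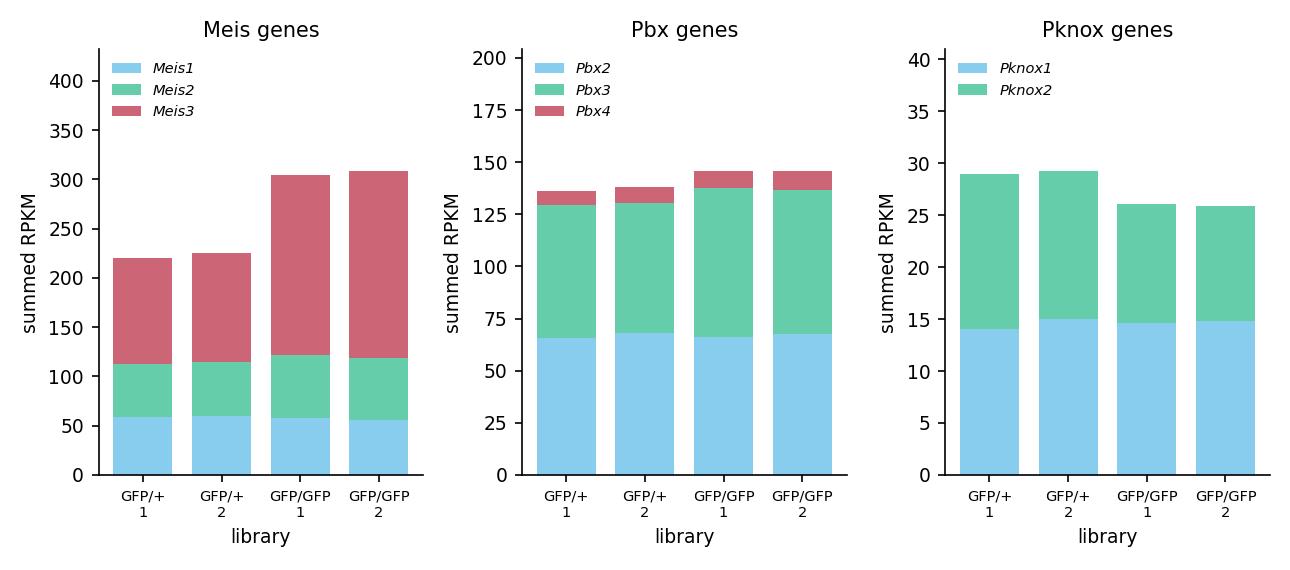
Summed RPKM of the *Meis*, *Pbx* and *Pknox* genes in each library, stacked by gene, with axes that start at 0 and differ between panels. The *Meis* bars stand at 220.0 and 225 RPKM in *Prdm13GFP/+* and at 304 and 309 RPKM in *Prdm13GFP/GFP*, and most of the added height is the *Meis3* segment.

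Among all genes tested, the profile of *Meis3* over the 4 libraries (log2 values centred on their mean) was closest to those of *Maf*, *Ajap1*, *Nnat*, *Gpr22* and *Eya2*. Their distances to it were 0.027 to 0.045 on the log2 scale and their own changes 0.73 to 0.79. *Maf*, a transcription factor gene, stood at 1.352 and 1.42 RPKM against 2.41 and 2.53 RPKM, and *Eya2*, a transcriptional coactivator gene, at 17.5 and 17.8 RPKM against 29.5 and 29.8 RPKM. With 4 libraries this closeness reflects mainly a like fold between the genotypes.

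**Figure D4:**
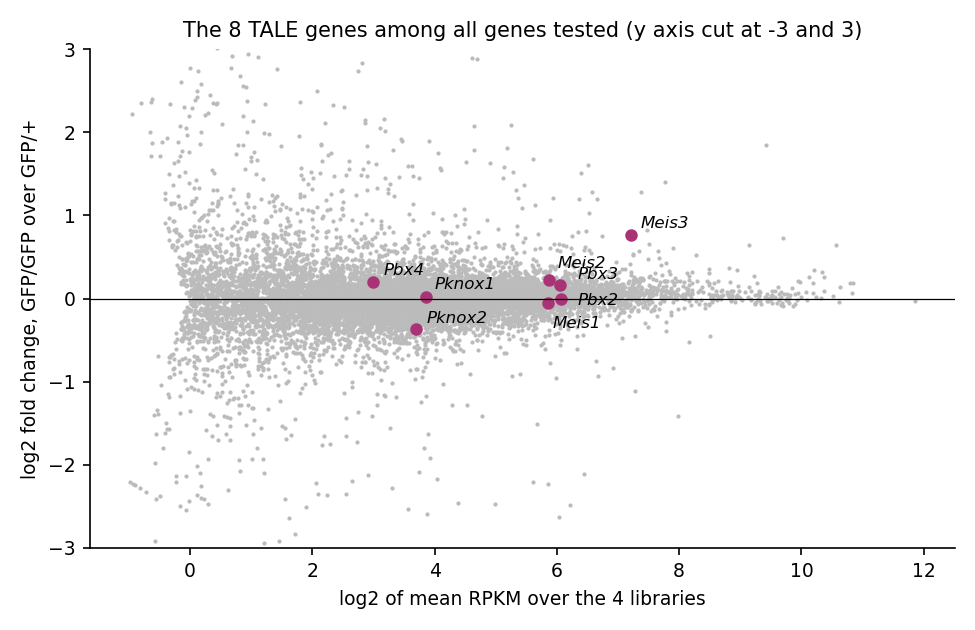
Log2 change of each of the 12046 genes tested (grey; the axis ends at -3 and 3, which leaves out 36 genes) against the log2 of its mean RPKM, with the 8 genes marked. *Meis3*, at 0.77, lies above most genes of its level, where 4 of 375 have a larger rise, while *Pbx2*, *Pknox1* and *Meis1* lie near 0.

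The rest of the TALE class was taken as 9 further genes, the Iroquois genes *Irx1* to *Irx6*, the repressor genes *Tgif1* and *Tgif2*, and *Mkx*. Of the 7 that could be tested, 1 was called, *Irx3*, and 4 passed the test, 3 of them higher and 1 lower, where 6.33% of all genes were called and 19.7% passed. Their median change was 0.08, beside 0.01 for all genes. *Irx3*, which sets boundaries between progenitor domains of the neural tube, stood at 36.1 and 43.7 RPKM in *Prdm13GFP/+* and at 56.4 and 64.4 RPKM in *Prdm13GFP/GFP*. Its log2 change was 0.60 (SE 0.10, limma adjusted p = 0.01003), just past 1.5-fold. The genotypes did not overlap, though the libraries within each also lay apart, and the call was lost without the first *Prdm13GFP/+* library (0.46, adjusted p = 0.0409) or the second *Prdm13GFP/GFP* library (0.51, limma adjusted p = 0.109). Without the latter library none of the 7 passed.

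The other 3 that passed are named after their values were seen. *Irx5*, a neighbour of *Irx3* in the genome, was higher by 0.47 (limma adjusted p = 0.00981) and *Tgif2* by 0.42 (adjusted p = 0.00425), and *Irx2* changed by -0.42 (adjusted p = 0.00908). *Irx1* and *Tgif1* did not pass, and *Irx6* and *Mkx* were below the level tested. *Irx4* did not pass either (limma adjusted p = 0.0962), although its measured change was large, at -0.84. It was near the level tested, at 0.930 and 1.28 RPKM in *Prdm13GFP/+* and 0.520 and 0.618 RPKM in *Prdm13GFP/GFP*, from 22 to 61 reads per library.

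HOX proteins are the main DNA-binding partners of PBX, and MEIS proteins also contact those of the posterior groups. Of 39 *Hox* genes, 29 were tested and 2 were called, both lower in *Prdm13GFP/GFP*, where 2.67% of all genes were called lower. Passing the test at any fold were 13 lower and 3 higher *Hox* genes, beside 9.95% and 9.76% of all genes. The median change was -0.18 beside 0.01 for all genes, with 24 of the 29 below 0. That median was -0.19 under median ratio scaling and -0.23 under quantile normalization. The number that passed was 20 under quantile normalization (2 higher, 18 lower) and 22 with the replicate number as a block (3 higher, 19 lower). It was 23 on recovered reads with limma voom (3 higher, 20 lower). With variances moderated without a trend 8 passed, and 0 passed when genes of any level were tested. The number that passed fell from 16 to between 4 and 8 with 1 library left out: 8 without the first and 6 without the second *Prdm13GFP/+* library, and 7 without the first and 4 without the second *Prdm13GFP/GFP* library.

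*Hoxb1*, the hindbrain gene of the first paralogous group, stood at 16.4 and 17.1 RPKM in *Prdm13GFP/+* and at 8.97 and 9.50 RPKM in *Prdm13GFP/GFP*. Its groups were far apart, with a log2 change of -0.85 (SE 0.06, limma adjusted p = 0.000354). *Hoxa6*, a gene of the brachial to thoracic levels, stood at 63.4 and 71.5 RPKM against 44.2 and 44.5 RPKM, a change of -0.60 (SE 0.07, limma adjusted p = 0.00182), which was under 1.5-fold without the second *Prdm13GFP/+* library (-0.52). The 3 higher genes, named after their values were seen, were *Hoxc10* (0.58, just under 1.5-fold), *Hoxd9* (0.46) and *Hoxc5* (0.18).

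By paralogous group, 1 gene passed higher and 7 lower of the 15 tested in groups 1 to 5 (median -0.18). In groups 6 to 8 none of 8 passed higher and 3 passed lower (median -0.32). In groups 9 to 13, 2 of 6 passed higher and 3 lower (median -0.02). By cluster, 8 of 9 tested *Hoxa* genes passed lower and none higher, 4 of 9 *Hoxb* genes lower and none higher, 1 of 6 *Hoxc* genes lower and 2 higher, and 1 of 5 *Hoxd* genes higher and none lower. Summed *Hox* RNA stood at 2378 and 2451 RPKM in *Prdm13GFP/+* and at 2024 and 2066 RPKM in *Prdm13GFP/GFP*.

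**Figure D5:**
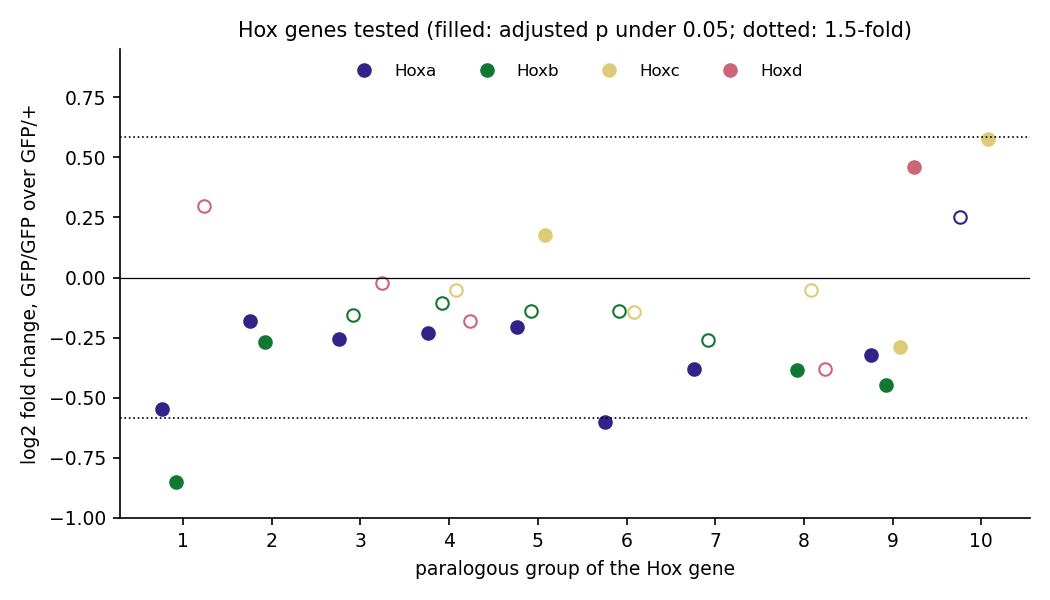
Log2 change of the 29 *Hox* genes tested, *Prdm13GFP/GFP* over *Prdm13GFP/+*, by paralogous group and coloured by cluster, filled where the limma adjusted p is under 0.05 and with dotted lines at 1.5-fold. Most points lie below 0, *Hoxb1* at -0.85 and *Hoxa6* at -0.60 lie past the lower line, and the filled points above 0 are *Hoxc5*, *Hoxd9* and *Hoxc10*.

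Facts of the whole comparison stand beside these values. *Prdm13* was read from both genotypes, since the transcript that carries GFP is still counted, and stood at 114 and 127 RPKM in *Prdm13GFP/+* and at 309.5 and 324 RPKM in *Prdm13GFP/GFP*, so its level does not check the loss of protein. Levels of cell type markers in the sorted cells differed as well. The summed RPKM of 8 dorsal inhibitory neuron markers was 523 and 561 in *Prdm13GFP/+* and 99.5 and 106 in *Prdm13GFP/GFP*, all 8 called lower, and that of 7 dorsal excitatory markers was 30.4 and 33.3 against 195 and 201, all 7 called higher. Pan-neuronal markers (6 genes) summed to 1627 and 1673 against 1994 and 2075 RPKM, with *Tubb3* the largest part, 4 passing higher, 1 of them called, and *Dcx* and *Map2* not passing. Progenitor markers (6 genes) summed to 508 and 555 against 551 and 584 RPKM and moved both ways, with 3 passing higher and 2 lower, 1 of these called. The lower ones were *Sox2* (149.8 and 163 against 111 and 113 RPKM) and *Sox1* (13.98 and 15.2 against 9.02 and 9.05 RPKM). Markers of sensory ganglion and neural crest were low, at a summed 4.33 to 10.95 RPKM (6 genes, with the higher values in *Prdm13GFP/GFP*). So were those of mesenchyme (3.68 to 5.50, 8 genes) and endothelium (2.39 to 3.65, 6 genes). Erythroid markers (8 genes) summed to more, 40.5 to 43.96 RPKM. Nearly all of that was *Hba-x* (15.2 to 16.5 RPKM) and *Hbb-y* (23.7 to 28.3 RPKM), while *Hba-a1*, *Hba-a2*, *Hbb-bt* and *Hbb-bs* are listed at 0. In such bulk samples, fewer cells of a type and less RNA per cell cannot be told apart, and the part of the marker shifts in the changes of *Meis3*, *Meis2*, *Pknox2* and the *Hox* genes was not tested.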

How the data were processed

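RNA-seq of sorted GFP+ neural tube cells was analysed from 4 libraries, 2 of *Prdm13GFP/+* and 2 of *Prdm13GFP/GFP*, grouped by the submitters' labels. The authors aligned the reads with TopHat2 2.1.0 to mm10, counted them on RefSeq exons, scaled them with TMM in edgeR 3.6.8 and deposited RPKM for 24421 genes. These RPKM values were used as deposited. The ChIP-seq part of the study was not used here.

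Genes whose mean reached 1 RPKM in one genotype or both were tested with limma 3.58.1 in R 4.3.3. A linear model was fitted to log2(RPKM + 0.1), its variances were moderated with a trend, and two-sided p-values were adjusted by the Benjamini-Hochberg method. The fold changes are on that scale, so the pseudocount understates those of low genes. The script was tested on simulated data. A permutation test of 2 against 2 libraries cannot go below p = 0.333 and was not used. Whole reads were recovered from the RPKM values of 99.995% of the genes above 0, which gave the depth and a voom alternative. Other pseudocounts, filters, scalings, tests and fits without 1 library were tried.

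Gene coordinates are RefSeq gene spans on mm10 (GRCm38). Named genes were the 8 members, *Prdm13*, *Pbxip1*, every called gene of the *Hox* and other TALE lists and the 5 profiles nearest to each called member, with further names marked where chosen later. The members and lists were chosen with earlier results of these data known.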

Additional observations from a re-analysis of the deposited data

How the results depend on the processing

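With 1 setting changed at a time, *Meis3* was called in 13 of 15 alternatives and was the 1 called gene of the 8 in each of them, including pseudocounts of 1 and 0.01, both other scalings, voom and each fit without 1 library. Testing genes of any level left 0 of the 8 called (44 of 24421 genes in all), and the limma treat test against 1.5-fold also left 0 (208 of 12046), with the *Meis3* change at 0.77 in both. Under those 2 settings 0 *Hox* genes and 0 other TALE genes were called. The other TALE count was also 0 under quantile normalization and under eBayes without a trend, and 2 at an unadjusted p, and with voom the 1 called gene was *Irx4*, lower, in place of *Irx3*. Without 1 library in turn the counts called were 1 to 1 for the 8 genes, 2 to 3 for *Hox* and 0 to 1 for other TALE genes (470 to 687 of all genes), where an arm of 1 library is assumed to vary like the other. *Meis2* passed the test in 8 of 15 alternatives and *Pknox2* in 9. In these counts and in that of *Meis3*, 1 alternative, the call at an unadjusted p, used the main fit with its adjusted p. Passing again there was fixed in advance. With 1 library left out the *Pbx2* change ran from -0.023 to 0.022, above 0 without the second *Prdm13GFP/+* library (0.022) or the first *Prdm13GFP/GFP* library (0.011), and the *Pknox1* change ran from -0.030, without the first *Prdm13GFP/+* library, to 0.061. On the log2 scale the summed *Meis* difference of 0.46 was 0.41 under quantile normalization, and the summed *Pbx* difference of 0.09 was 0.045 there and 0.077 to 0.096 with 1 library left out. The cause of these differences between settings was not tested.

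With the replicate number as a block, 1 of the 8 genes was called as before, 4 passed the test (*Pbx3* in addition), 2 *Hox* genes and 1 other TALE gene were called, and 801 genes were called in all against 762. The numbers of the labels share no embryos across genotypes, and same-numbered libraries deviated together with a correlation of 0.047 over genes, so they were not taken as pairs. Depth limits *Pbx4* most, with 111 to 190 reads per library and a log2 interval of -0.01 to 0.41.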
